A study of Mus musculus with 4 samples.

Results

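The genes described here are 76 regional patterning transcription factor genes, out of 18193 genes measured on 4 mouse arrays. They were chosen by name alone, as the genes whose symbol belongs to the Pax, Lhx, Nkx, Irx, Dbx, En, Otx, sine oculis (Six2 to Six6), Meis, Pbx, Dlx, Msx, Isl, Gbx, Emx, Pou3f, Pou4f or Onecut families, with Mnx1. Nearly all of them carry a homeobox. Pax1 and Pax9 belong to the set by family and encode a paired domain without a homeodomain. The 76 genes were measured by 130 probe sets, with 40 genes measured by a single one, and for each gene the probe set whose log2 signals averaged highest over the 4 arrays was used. Other members of these families were not analysed here.

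Each kind of cell was measured on 1 Affymetrix array. The first array is labelled as cells sorted for an HB9-GFP reporter at day 8 of differentiation, from an ES cell line that carries the transgene. The second holds cerebellar granule cells of postnatal day 6, the third sorted Sox1 neural stem cells, and the fourth undifferentiated ES cells of a line that the labels do not name. The HB9 line was grown with leukemia inhibitory factor on a feeder layer of mouse embryonic fibroblasts stopped by mitomycin, in a protocol that the labels repeat for every array. The differentiation used purmorphamine, an agonist of the hedgehog pathway, at 0.2 uM, retinoic acid at 0.1 uM and Sonic hedgehog from day 5 to day 9 per the labels, which runs past the stated day of the sort. The labels give no mouse strain, and they do not say whether the granule cells were purified or from what source and by what marker the Sox1 cells were sorted. With 1 array per kind of cell there is no replicate error, so no difference below carries a p-value or an SD and each is a difference between these arrays.

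Regional patterning factors divide the early nervous system into territories. Secreted signals set up domains in which different homeodomain proteins are made, and many of these proteins repress each other, which sharpens the borders between neighbouring domains. Other homeodomain proteins are then switched on as neurons leave the cell cycle and mark which type of neuron each one becomes. In ES cells most of these genes are held silent by Polycomb repressors, and their start sites lie in stretches rich in CpG dinucleotides.

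Windows around the annotated start sites are shown for 6 of the genes, because they stand for the patterns described below. Irx3 and Meis2 stood out in Sox1 cells, Meis1 and Pax6 were bright in granule and Sox1 cells, Gbx2 was bright in all but granule cells, and Mnx1 was dark throughout. Each window runs from 250 bases before to 50 bases after the most upstream start in RefSeq (GRCm38.p6), 5′ to 3′ on the gene's strand, and capitals mark CpG dinucleotides.
Irx3 (chr8:91801605-91801904, minus strand): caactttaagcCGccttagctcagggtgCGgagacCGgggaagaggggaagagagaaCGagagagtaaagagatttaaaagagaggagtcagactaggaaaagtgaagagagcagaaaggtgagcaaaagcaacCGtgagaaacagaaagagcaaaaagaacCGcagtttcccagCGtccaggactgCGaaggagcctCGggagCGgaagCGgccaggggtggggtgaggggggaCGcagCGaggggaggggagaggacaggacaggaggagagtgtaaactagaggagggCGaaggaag
Meis1 (chr11:19018920-19019219, minus strand): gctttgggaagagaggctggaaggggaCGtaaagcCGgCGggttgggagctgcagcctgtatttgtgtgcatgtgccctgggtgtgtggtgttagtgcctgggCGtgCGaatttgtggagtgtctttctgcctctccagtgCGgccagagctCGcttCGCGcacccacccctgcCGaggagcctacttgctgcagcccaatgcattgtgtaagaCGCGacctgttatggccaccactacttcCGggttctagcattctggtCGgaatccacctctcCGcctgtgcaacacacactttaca
Meis2 (chr2:116064570-116064869, minus strand): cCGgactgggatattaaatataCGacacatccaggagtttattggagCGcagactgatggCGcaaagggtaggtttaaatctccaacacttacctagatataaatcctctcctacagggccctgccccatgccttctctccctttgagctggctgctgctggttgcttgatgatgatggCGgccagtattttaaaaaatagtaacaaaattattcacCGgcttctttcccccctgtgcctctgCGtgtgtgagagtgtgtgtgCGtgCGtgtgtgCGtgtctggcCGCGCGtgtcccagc
Pax6 (chr2:105668646-105668945, plus strand): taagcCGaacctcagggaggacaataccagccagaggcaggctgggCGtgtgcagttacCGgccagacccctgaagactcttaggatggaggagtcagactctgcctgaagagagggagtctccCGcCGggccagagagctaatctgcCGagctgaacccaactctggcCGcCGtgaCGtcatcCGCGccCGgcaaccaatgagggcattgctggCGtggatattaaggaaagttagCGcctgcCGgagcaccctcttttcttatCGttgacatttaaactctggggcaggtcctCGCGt
Gbx2 (chr1:89931127-89931426, minus strand): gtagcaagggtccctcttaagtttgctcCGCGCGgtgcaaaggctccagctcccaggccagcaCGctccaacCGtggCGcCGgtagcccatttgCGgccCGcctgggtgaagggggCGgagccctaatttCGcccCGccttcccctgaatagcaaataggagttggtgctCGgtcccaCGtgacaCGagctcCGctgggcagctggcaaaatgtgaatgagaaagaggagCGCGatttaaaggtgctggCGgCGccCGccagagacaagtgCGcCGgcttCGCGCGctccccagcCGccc
Mnx1 (chr5:29478421-29478720, minus strand): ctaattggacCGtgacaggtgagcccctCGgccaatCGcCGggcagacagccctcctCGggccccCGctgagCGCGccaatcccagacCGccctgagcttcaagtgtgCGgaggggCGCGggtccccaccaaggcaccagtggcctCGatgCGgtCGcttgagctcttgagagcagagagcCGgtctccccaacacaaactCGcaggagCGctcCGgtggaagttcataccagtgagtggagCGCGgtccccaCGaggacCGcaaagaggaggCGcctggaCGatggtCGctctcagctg

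The window of Mnx1, whose signal was low on every array, holds 26 CpGs, against 13 for Meis2 and 14 for Irx3, each bright on the Sox1 array. Gbx2, bright on all but the granule array, has 27, and Pax6 and Meis1, bright in granule and Sox1 cells, have 18 and 15. RefSeq windows were found for 56 of the 76 genes. Their median was 20.5 CpGs per window, against 17 for the 14452 windows of genes on the array and 7 for all 27025 windows. The median was 21 CpGs for the 27 genes undetected on every array and 20 for the 29 detected on at least 1, a difference of 1 CpG. The homeodomain core TAATTA, searched on both strands like the other motifs, lay in 3 of the 56 windows, or 5.36%, against 3.30% of the windows of genes on the array. The MEIS core TGACAG lay in 15 windows, or 26.8%, against 17.6%. The POU octamer ATGCAAAT was in none of the 56 windows and in 1.49% of those of genes on the array. The TATA box motif TATAAA was in 5 windows, or 8.93%, against 9.87%. Matches of different motifs were counted separately and may share bases.

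All signals below are linear intensities as deposited, after a scaling that gave every array the same trimmed mean. The low level, 78.8, is the mean of the arrays' median log2 signals, and a gene counts as detected on an array at 157.5 or more, which is 1 log2 unit above it. To be called higher or lower, a gene had to differ by 4-fold or more, with signals under the low level raised to it, and to be detected on whichever array was brighter. Folds against such a signal are lower bounds and are written "at least". A dimmer signal in the gap from 78.8 to 157.5 gives no fold, and only the signals are printed. A probe set's level says nothing about that of another probe set, so the values compare arrays and not genes.

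The array labelled HB9-GFP+ goes against its label in most of its markers, and the label is kept here only as a name. Of 13 pluripotency markers, 13 were detected on it, 2 in granule cells, 7 in Sox1 cells and 13 in ES cells. Of 13 fibroblast markers, it held 12 at the detection level, granule cells 8, Sox1 cells 3 and ES cells 3, with summed signals of 37490.4, 5929.4, 4069.0 and 9422.0. Of 10 motor neuron markers (a list that holds Mnx1, Isl1, Isl2, Lhx3 and Lhx4), 1 was detected on it, namely Nefh. Granule cells held 0, Sox1 cells 2 and ES cells 2. Nefh was brightest on this array, at 998.1, against 115.4, 222.2 and 260.9 in granule, Sox1 and ES cells. The difference passed the 4-fold rule against granule and Sox1 cells. Markers other than Nefh and Isl1 were dark on every array, so they cannot tell the arrays apart. Olig1 and Olig2, which also act in motor neuron progenitors, exceeded their ES signals by the same rule, at 619.7 against 61.9 and at 320.6 against 0.9. On the granule array 8 of 9 markers of Purkinje cells and interneurons (a list that holds Lhx1 and Lhx5), all 6 oligodendrocyte markers, all 7 astrocyte markers and 5 of 6 microglia markers were also detected, so signals of other cerebellar cells were present. Granule neuron markers were detected at 8 of 10 there, and 8 of 8 neural progenitor markers (a list that holds Pax6) were detected on the Sox1 array. The 3' to 5' ratio of the actin control was 2.77 for the array labelled HB9-GFP+, 2.29 in granule cells, 5.08 in Sox1 cells and 4.55 in ES cells. That of the Gapdh control was 1.37, 2.70, 3.68 and 1.99 in the same order, so the controls ranked the arrays differently apart from Sox1 cells, which were highest in both. The part of RNA quality in the results was not tested. The SD of the hybridisation controls' log2 differences was 0.11 or less in every comparison.

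Patterning genes were brightest as a group in Sox1 neural stem cells. There 34 of the 76 genes were detected, 44.7% of them, against 51.5% of all genes. Fewer were detected elsewhere, with 13 on the array labelled HB9-GFP+ (17.1%, against 51.3% of all genes), 21 on the granule array (27.6%, against 52.3%) and 11 on the ES array (14.5%, against 51.8%). The median signal over the set was 38.6 for the array labelled HB9-GFP+, 49.9 in granule cells, 117.4 in Sox1 cells and 46.5 in ES cells. The remaining 39 genes were detected on no array, with signals no higher than 138.3.

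**Figure D1:**
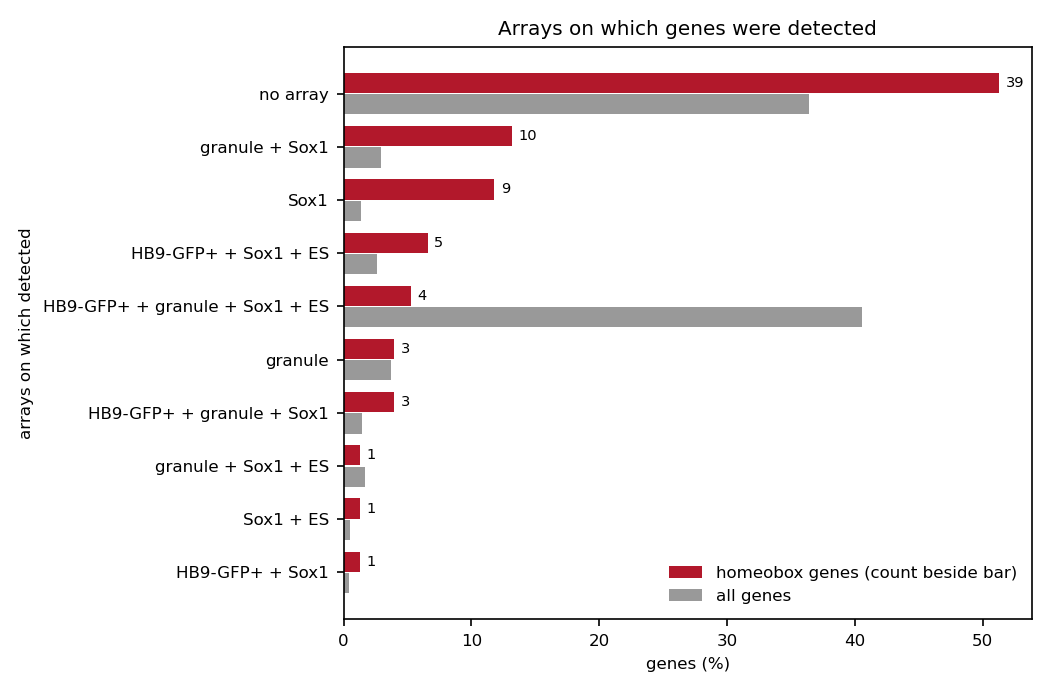
Share of genes (%, horizontal axis) by the arrays on which they were detected, for the 76 homeobox genes (red, with their count) and for all 18193 genes (grey). Only 4 homeobox genes were detected on all 4 arrays, whereas 9 were detected on the Sox1 array alone and 10 on the granule and Sox1 arrays together.

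The arrays on which a gene was detected split the set. Genes seen on the Sox1 array alone made up 11.8% of the set, against 1.37% of all genes, and were Dbx1, Emx2, Lhx2, Msx3, Nkx6-1, Pax7, Six3, Six5 and Six6. A further 10, or 13.2% against 2.90% of all genes, were seen on the granule and Sox1 arrays, among them Meis1, Pax3 and Pou3f3. Detection on all 4 arrays, the commonest pattern over all genes at 40.6%, was found for 5.26% of the set, namely Irx3, Otx2, Pbx2 and Pbx3. No patterning gene was detected in ES cells alone or on the array labelled HB9-GFP+ alone, nor on that pair alone. Several genes lay close to the detection level. They were En2, Irx1 and Irx2 above it and Msx1 below it on the array labelled HB9-GFP+, at 157.6, 159.3, 168.4 and 146.9, and Lhx5 and Lhx1 below it on the Sox1 array, at 153.8 and 144.3, so the patterns of these genes could move with a small shift of the level. Nearest it on the granule array were Msx1 above at 170.8 and Msx2 below at 137.4, and on the ES array Irx3 above at 166.1 and En2 below at 138.1.

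Sox1 neural stem cells were first compared with undifferentiated ES cells. By the 4-fold rule 20 of the 76 genes, 26.3%, were higher in Sox1 cells, against 3.59% of all genes, and 0 were lower, against 3.02% of all genes. The median log2 difference over all 76 genes was 0.38, against 0.00 over all genes. In the comparison of granule cells with ES cells 8 were higher (6.83% of all genes) and 4 lower (4.99% of all genes). Granule cells set against Sox1 cells gave 1 higher (3.66% of all genes) and 13 lower, or 17.1% of the set against 2.09% of all genes. These comparisons share arrays and are not independent of each other. The granule array held signals of several kinds of cells. In such a sample a lower signal from fewer cells of a type and one from less RNA per cell cannot be told apart. The purity of the Sox1 and ES samples was not tested.

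**Figure D2:**
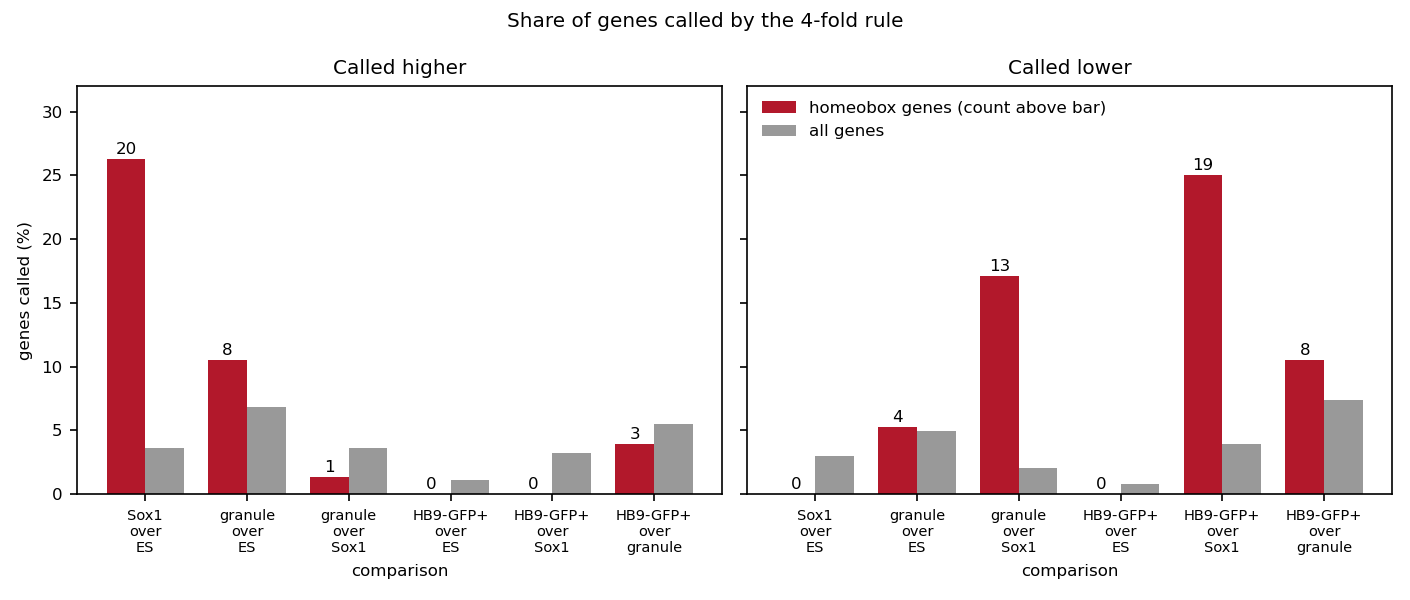
Percentage of genes called higher (left panel) or lower (right panel) by the 4-fold rule in the 6 comparisons, for the 76 homeobox genes (red, count above each bar) and all 18193 genes (grey). The red bars stand furthest above the grey ones for genes higher in Sox1 cells than in ES cells, at 26.3%, and for genes lower on the array labelled HB9-GFP+ than in Sox1 cells, at 25%.

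The TALE proteins Meis and Pbx bind DNA together with Hox and other homeodomain proteins and raise their affinity and selectivity. Of 6 measured TALE genes, 5 were higher in Sox1 cells than in ES cells, against 3.59% of all genes. Meis2 stood at 255.2 for the array labelled HB9-GFP+, 65.2 in granule cells, 10527.4 in Sox1 cells and 610.5 in ES cells. It was 17.2-fold higher in Sox1 cells than in ES cells, and at least 134-fold lower in granule cells than in Sox1 cells. Its paralog Meis1, by contrast, was bright in both neural samples, at 100.3 for the array labelled HB9-GFP+, 3009.5 in granule cells, 4097.7 in Sox1 cells and 120.3 in ES cells. The log2 difference between granule and Sox1 cells was -0.45 for Meis1 and -7.06 for Meis2. Every Meis2 probe set was lower on the granule than on the Sox1 array, whereas of the Meis1 probe sets the one used was slightly lower and the other two were higher. The other Meis2 probe sets ranged from 19.1 to 28.2 on the granule array and from 428.3 to 3682.6 on the Sox1 array, while the other Meis1 probe sets were at 1316.7 and 227.6 on the granule array and at 711.4 and 156.5 on the Sox1 array. Meis3 was at 58.6, 195.6, 344.0 and 28.5 on the array labelled HB9-GFP+ and the granule, Sox1 and ES arrays.

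The Pbx genes were seen more broadly, with 2 of 3 measured members detected on every array. Pbx3 had signals of 848.3 for the array labelled HB9-GFP+, 3253.6 in granule cells, 7429.7 in Sox1 cells and 868.7 in ES cells, and was 8.55-fold higher in Sox1 than in ES cells. Pbx2 gave 1150.4 for the array labelled HB9-GFP+, 335.2 in granule cells, 1980.9 in Sox1 cells and 358.4 in ES cells. It was brighter on the array labelled HB9-GFP+ than in granule or ES cells, by each of its 3 probe sets. Pbx2 was 5.53-fold higher in Sox1 than in ES cells, but with the mean over its probe sets that log2 difference was 1.85, short of the threshold. Pbx4 was undetected throughout. The Meis2 and Pbx3 probe sets used are of a type whose probes can match more than 1 transcript.

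**Figure D3:**
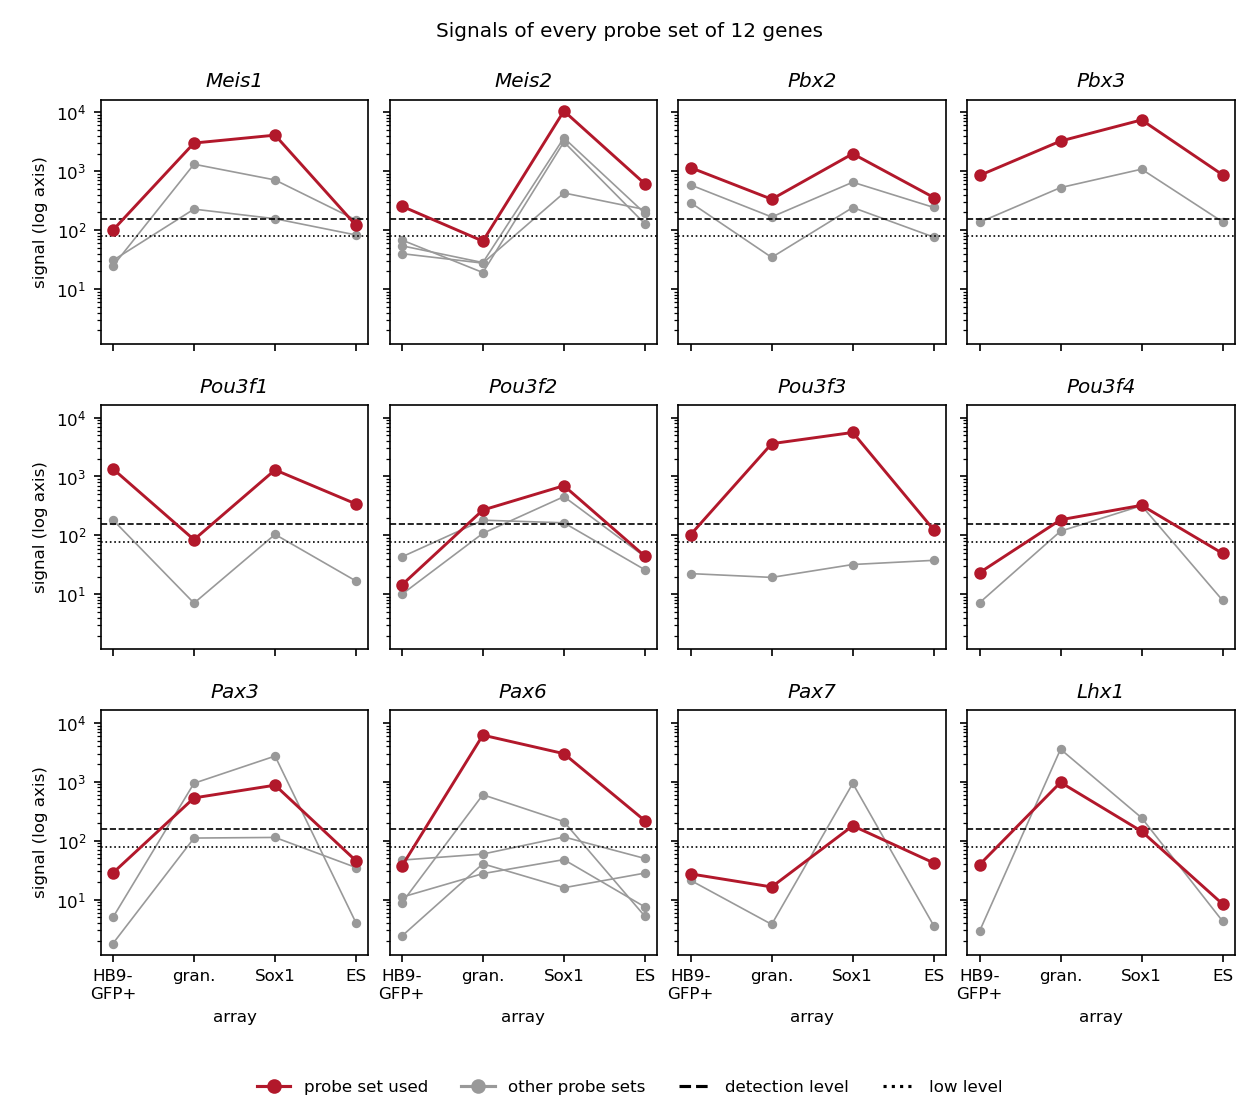
Deposited signal (log axis) of every probe set of 12 genes on the 4 arrays, with the probe set used in red and the others in grey. Lines join the points of a probe set and imply no order of the arrays, and the dashed and dotted lines mark the detection level of 157.5 and the low level of 78.8. All Meis2 probe sets are low on the granule array and high on the Sox1 array, whereas the Meis1 probe set used is high on both.

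Class III POU factors act in neural progenitors and in migrating and maturing neurons. By the probe sets used, they were brightest in Sox1 cells for 3 of 4 genes. All 4 were detected in Sox1 cells, against 51.5% of all genes. Pou3f3 was at 103.3 for the array labelled HB9-GFP+, 3604.4 in granule cells, 5589.7 in Sox1 cells and 124.2 in ES cells, although a further probe set for it stayed undetected and with the mean over both the log2 difference was 1.75 in granule over ES cells, short of the threshold, and 2.43 in Sox1 over ES cells, still past it. Pou3f2 gave 14.4, 269.7, 697.9 and 44.4 in the same order, with at least an 8.86-fold higher signal in Sox1 than in ES cells. Another Pou3f2 probe set was slightly brighter in granule than in Sox1 cells, at 181.4 against 163.8. The remaining Pou3f2 probe set gave 108.4 against 455.2. Pou3f4 was at 23.3, 184.4, 324.5 and 49.5 over the 4 arrays. The exception in the family was Pou3f1, which is also known from the epiblast that follows the naive pluripotent state. Its signals were 1347.8 for the array labelled HB9-GFP+, 84.7 in granule cells, 1295.2 in Sox1 cells and 341.5 in ES cells, so it was similar on the array labelled HB9-GFP+ and the Sox1 array. Its other probe set was detected only on the array labelled HB9-GFP+, at 183.5, against 7.1, 104.1 and 16.8 on the granule, Sox1 and ES arrays.

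Iroquois factors mark broad territories of the neural plate and act with other progenitor factors in dorsoventral patterning. Of 6 measured, 3 were higher in Sox1 than in ES cells, against 3.59% of all genes. The same number were lower in granule than in Sox1 cells, against 2.09% of all genes. Irx3 had signals of 200.0 for the array labelled HB9-GFP+, 284.4 in granule cells, 8508.8 in Sox1 cells and 166.1 in ES cells, a 51.2-fold difference between Sox1 and ES cells. Irx5 reached 1321.8 in Sox1 cells, against 56.4 on the array labelled HB9-GFP+, 220.1 in granule cells and 48.2 in ES cells. Irx2 reached 1627.6 in Sox1 cells, against 168.4, 369.3 and 132.1 on the same 3 arrays. These 3 genes stood at least 4-fold above each of the other 3 arrays on the Sox1 array, while Irx1 was at 159.3, 275.7, 320.7 and 117.3 over the 4 arrays and was called in no comparison. Irx4, known from the heart ventricle, and Irx6 were undetected.

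Position on the chromosome was not used to choose the genes, and the Iroquois genes lie in a pair of clusters. In the RefSeq annotation of GRCm38.p6, Irx3, Irx5 and Irx6 follow each other on chromosome 8 and Irx1, Irx2 and Irx4 on chromosome 13, with 0 protein-coding genes between them. Irx6 and Irx4, at the end of each run, were the undetected ones. Other neighbours differed as well. Nkx2-2 lies between Nkx2-4 and Pax1 on chromosome 2, and Nkx2-9 between Nkx2-1 and Pax9 on chromosome 12, and in both cases the middle gene was detected and its neighbours were not.

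Progenitor factors of the dorsoventral axis include Pax3, Pax7 and the Msx genes of dorsal domains, Dbx1 and Dbx2 of intermediate ones, and the Nkx2 and Nkx6 genes of ventral ones. Of 12 measured, 9 were detected in Sox1 cells, from the dorsal, the intermediate and the ventral groups alike, against 51.5% of all genes. In Sox1 over ES cells 5 were higher, namely Pax3, Pax6, Dbx1, Nkx2-2 and Nkx2-9, against 3.59% of all genes. Dbx1 was at 4.1 for the array labelled HB9-GFP+, 33.4 in granule cells, 1871.1 in Sox1 cells and 47.5 in ES cells. It was detected in Sox1 cells alone and was at least 23.8-fold higher there than in ES cells. Among the ventral factors, Nkx2-2 was at 24.4, 1045.8, 455.9 and 23.3 on the same 4 arrays and Nkx6-1 at 7.0, 5.6, 279.7 and 11.7. Nkx2-2 was at least 13.3-fold higher in granule than in ES cells and at least 5.79-fold higher in Sox1 than in ES cells. Nkx2-2 is also made by oligodendrocyte progenitors, and on the granule array, where it was brightest, Olig1 was at 3541.0 and all 6 oligodendrocyte markers were detected. The part of such cells in its signal was not tested. Nkx2-9 was detected on the Sox1 array at 434.0 and on the array labelled HB9-GFP+ at 172.4, against 20.2 on the granule and 24.6 on the ES array. Of the dorsal Msx genes, Msx1 was at 146.9, 170.8, 324.1 and 134.2 and Msx3 at 92.3, 44.5, 190.1 and 61.4 over the 4 arrays, and neither was called. The Msx1 probe set used is also of the type whose probes can match more than 1 transcript. The other Msx1 probe set was undetected on every array, at 41.1, 23.8, 17.7 and 55.4 in the same order. Msx2, Dbx2 and Nkx6-2 were undetected, at no more than 137.4.

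The Pax genes of this group were mostly bright in both neural samples. Pax6, needed for progenitors of the forebrain and spinal cord and for granule cell precursors, was at 36.8 for the array labelled HB9-GFP+, 6180.5 in granule cells, 2996.7 in Sox1 cells and 217.8 in ES cells. That is 28.4-fold higher in granule than in ES cells and 13.8-fold higher in Sox1 than in ES cells. Only 1 of its 4 other probe sets was detected on any array, at 8.8, 601.6, 210.3 and 5.2 in the same order, and with the mean over its probe sets none of its differences reached 4-fold. Pax3 was at 28.4, 531.7, 874.8 and 45.4. A brighter Pax3 probe set gave 5.0, 943.0, 2726.9 and 4.0. For Pax7 the probe set decides the call, since the one used here had 178.9 in Sox1 cells against 41.9 in ES cells, short of 4-fold, and its other probe set had 936.8 against 3.6.

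Factors of the midbrain and hindbrain separated the samples. En2, which patterns the midbrain-hindbrain junction and the cerebellum, was at 157.6 for the array labelled HB9-GFP+, 3003.4 in granule cells, 1204.9 in Sox1 cells and 138.1 in ES cells, so both neural samples were high. En1 was detected in granule cells alone, at 227.9. Gbx2 acts in the anterior hindbrain and is also known as a target of leukemia inhibitory factor signalling in mouse ES cells. Its signals were 1450.8 for the array labelled HB9-GFP+, 71.4 in granule cells, 1424.3 in Sox1 cells and 457.5 in ES cells, so that it was undetected in granule cells alone, where it was at least 18.1-fold lower than in Sox1 cells. Otx2 opposes Gbx2 at that junction and is also made in the epiblast. It was at 1035.4, 610.3, 631.0 and 1028.6 over the same 4 arrays, and its range of 0.76 log2 units was the smallest among the 4 genes of the set detected on every array. Pax5, Pax8 and Gbx1 were undetected, at no more than 105.8.

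Anterior brain and eye factors were seen in Sox1 cells in addition to Otx2. Lhx2, which acts in the eye field and the cortex, was at 61.5 for the array labelled HB9-GFP+, 72.9 in granule cells, 1250.6 in Sox1 cells and 33.3 in ES cells. Six6, a factor of the eye and the pituitary, was at 18.1, 0.9, 472.4 and 27.9, at least 6.00-fold higher in Sox1 than in ES cells. Both were detected in Sox1 cells alone, as were Emx2 at 262.9 and Six3 at 207.7, which were not called. The other Six3 probe sets were undetected on every array, at 3.0 and 44.3 in Sox1 cells. Otx1, Emx1 and Lhx9 were undetected, at no more than 107.3. None of the 8 ventral forebrain genes (Dlx1, Dlx2, Dlx5, Dlx6, Lhx6, Lhx8, Nkx2-1 and Nkx2-4) was detected on any array. Thus the Sox1 array held signals of genes from anterior, hindbrain, dorsal and ventral territories at once, and a single array cannot say whether the same cells made them.

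**Figure D4:**
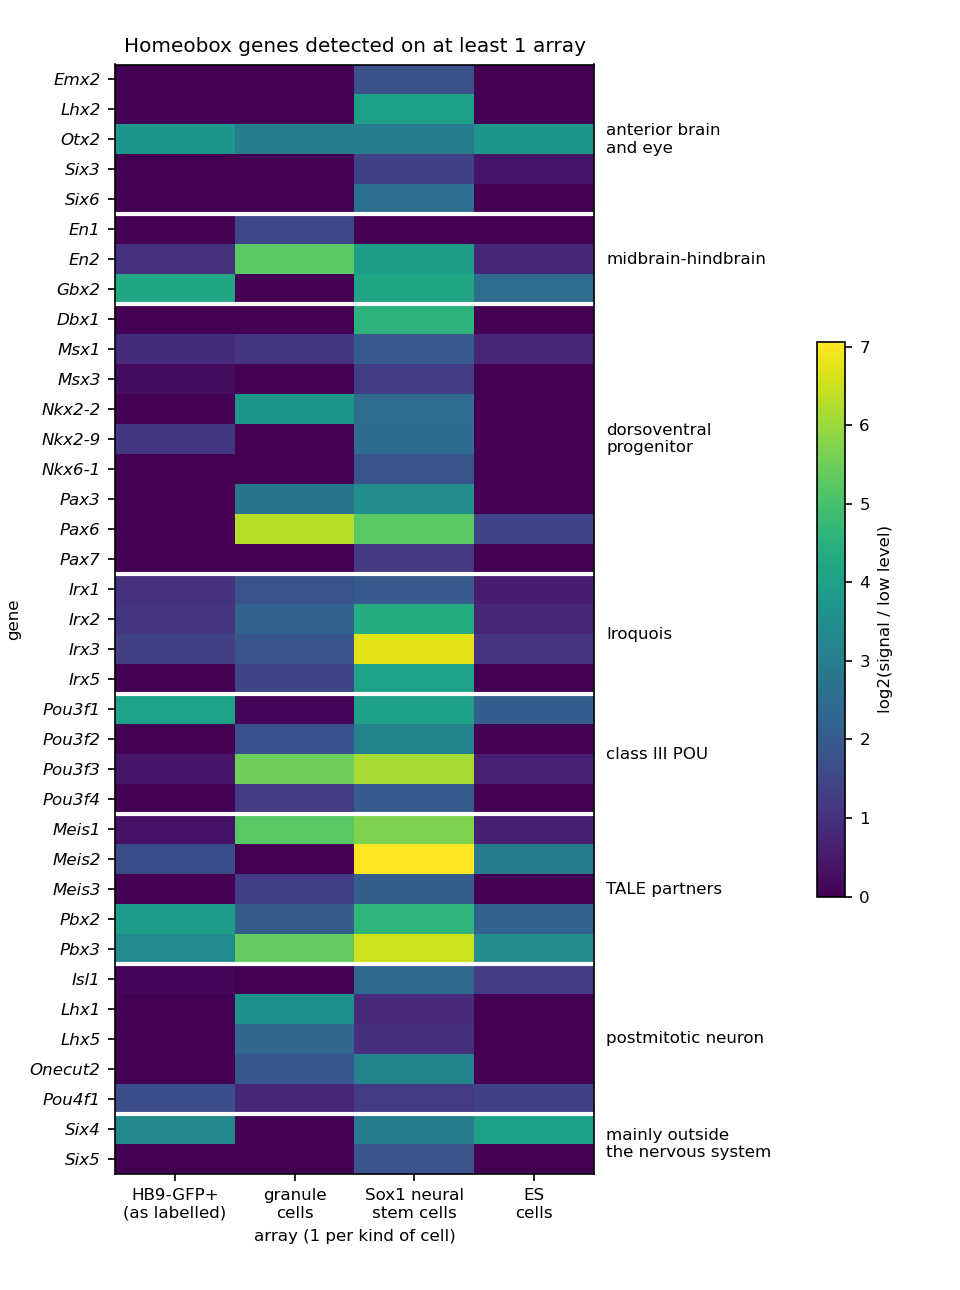
Signal of the 37 homeobox genes detected on at least 1 array, as log2 of signal over the low level (colour, with dimmer signals set to the low level), with 1 column per array and genes grouped by role. Colours compare the arrays within a row only. The Sox1 column is lit in most groups, the granule column is dark for Meis2, Gbx2, Pou3f1 and Six4, and the column labelled HB9-GFP+ resembles the ES column.

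Of 12 measured factors that mark postmitotic neuron types, 1 was higher in Sox1 than in ES cells (Onecut2), against 3.59% of all genes. In granule over ES cells 2 were higher (Lhx1 and Lhx5), against 6.83% of all genes. Lhx1 and Lhx5 are LIM homeodomain factors of Purkinje cells and of spinal interneurons. Lhx1 was at 39.1 for the array labelled HB9-GFP+, 976.6 in granule cells, 144.3 in Sox1 cells and 8.4 in ES cells, and it was the 1 patterning gene higher in granule than in Sox1 cells. It was at least 12.4-fold higher in granule than in ES cells. Its other probe set gave 2.9, 3565.7, 244.5 and 4.3. Lhx5 was at 39.2, 398.5, 153.8 and 41.3. Markers of Purkinje cells moved with both genes on the granule array, with Pcp2 at 1954.4 and Calb1 at 2703.5 there, against 19.7 and 123.1 on the Sox1 array, and the part of Purkinje cells in the Lhx1 and Lhx5 signals was not tested. Onecut2 was at 29.0, 295.3, 707.7 and 52.3 over the 4 arrays, and its 3 probe sets shared the order of the granule, Sox1 and ES arrays. Pou4f1, a factor of sensory neurons, stayed between 132.6 and 256.3 on all arrays by the probe set used. Its other probe set was at 38.5, 66.1, 166.6 and 258.5 over the 4 arrays, detected only in Sox1 and ES cells. Pou4f3, Onecut1 and Onecut3 were undetected, at no more than 79.4.

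Motor neuron determinants were nearly all undetected. Mnx1, which encodes HB9, was at 15.9 for the array labelled HB9-GFP+, 6.3 in granule cells, 13.7 in Sox1 cells and 5.8 in ES cells. Lhx3 was at 7.5, 60.2, 46.0 and 77.8, Lhx4 at 35.5, 2.5, 45.4 and 18.4, and Isl2 at 75.2, 79.9, 96.6 and 33.5. None of them was detected anywhere. Isl1, which also acts in sensory neurons and heart, was detected on 2 arrays, at 427.4 in Sox1 cells and 189.1 in ES cells, against 85.2 on the array labelled HB9-GFP+ and 29.7 in granule cells. Its lower signals on the array labelled HB9-GFP+ and the granule array, set against Sox1 cells, were not 4-fold with the mean over its probe sets (log2 difference -1.58 in both). The array labelled for a motor neuron reporter thus had none of these 5 genes above the detection level, and since the probe sets of 4 of them were dark on every array, those probe sets cannot say whether they detect the transcript.

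Members known mainly outside the nervous system gave 1 clear difference. Six4, which acts in muscle and sensory placodes, was at 804.2 for the array labelled HB9-GFP+, 57.0 in granule cells, 621.9 in Sox1 cells and 1277.7 in ES cells. It was at least 16.2-fold lower in granule than in ES cells, and all 4 of its probe sets were lower on the granule array than on each of the others. Six5 was detected in Sox1 cells alone, at 288.4. The remaining 12, among them the heart factor Nkx2-5 and the sclerotome factors Pax1 and Nkx3-2, were undetected.

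The array labelled HB9-GFP+ was then set against the other 3 arrays. Against ES cells 0 of the 76 genes were called, higher or lower, where 1.11% and 0.813% of all genes were. The nearest to the threshold was Pou3f1, at 1347.8 against 341.5, a log2 difference of 1.98, and with the mean over its probe sets it was called higher. Pbx2 followed at 1150.4 against 358.4, and Gbx2 stood at 1450.8 against 457.5. Fibroblast markers also differed in this comparison, with 9 of 13 called higher, and their part in the signals of patterning genes was not tested. Against Sox1 cells 0 were higher (3.22% of all genes) and 19 lower, or 25% of the set, against 3.97% of all genes. Pax6 was at least 38-fold lower, Meis2 41.3-fold lower and Irx3 42.5-fold lower. Against granule cells 3 were higher (5.53% of all genes), namely Gbx2, Pou3f1 and Six4, and 8 were lower (7.41% of all genes), with Pax6 at least 78.5-fold lower.

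Genes set apart on 1 array, at least 4-fold above each of the other 3, were counted as well. On the Sox1 array these were 7 of the 76 genes, 9.21%, against 0.616% of all genes, and they were Dbx1, Irx2, Irx3, Irx5, Lhx2, Meis2 and Six6. On the granule array it was Lhx1 alone, 1.32% against 2.72% of all genes. On the array labelled HB9-GFP+ and the ES array there were 0, against 0.412% and 0.247% of all genes.

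Beside the hybridisation controls, technical spread was read from probe sets of the same gene. Among called genes with at least 2 probe sets detected on either array of a comparison, all had the same sign in each detected probe set, at 9 of 9 for Sox1 over ES cells, 6 of 6 for granule over ES, 4 of 4 for granule over Sox1, 8 of 8 for the array labelled HB9-GFP+ over Sox1 and 6 of 6 for it over granule. These counts include the probe set that made each call and leave out undetected ones, with signals under the low level raised to it. Agreement was thus favoured in advance, and the counts cannot show how secure the signs are. The pooled SD of the log2 difference among a gene's probe sets ranged from 0.59 to 1.25 over the 6 comparisons. The size of a difference therefore depended on the probe set. Genes just inside the rule, such as Pou3f4 in Sox1 over ES cells (324.5 against 49.5, log2 difference 2.04), differ from those just outside, such as Six5 (288.4 against 79.5, 1.86), by less than that spread.

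Partner proteins of the homeodomain factors were followed on a separate list of 21 genes, all of which were measured. It holds the LIM domain cofactors and their antagonists, the Pknox relatives of Meis, the Eya and Dach partners of sine oculis family proteins and the Tle corepressors. In Sox1 over ES cells 7 were higher and 0 lower, against 3.59% and 3.02% of all genes. In granule over ES cells 6 were higher and 0 lower, against 6.83% and 4.99% of all genes. Dach1 was at 29.1 for the array labelled HB9-GFP+, 2060.5 in granule cells, 2416.6 in Sox1 cells and 12.6 in ES cells. Ssbp2, which stabilises LIM complexes, was at 396.3, 1802.0, 3563.1 and 246.5, and Pknox2 at 75.5, 367.9, 1161.7 and 220.3. No partner gene was called between granule and Sox1 cells, where 3.66% of all genes were higher and 2.09% lower. None was called between the array labelled HB9-GFP+ and ES cells either, where the shares were 1.11% and 0.813%. Lmo2, an antagonist of LIM homeodomain complexes, was higher in granule than in ES cells, at 545.7 against 48.2.

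Signals that set up the territories were mostly undetected. Of 20 measured signal and antagonist genes, 3 were higher in Sox1 than in ES cells (3.59% of all genes) and 0 lower (3.02%). These were Shh, the ventralising signal, at 758.2 against 68.0, Fgf15 at 1106.7 against 185.2, and Cyp26a1, which degrades retinoic acid, at 460.6 against 59.5. On the array labelled HB9-GFP+ 1 of the 20 was higher than in ES cells (1.11% of all genes) and 0 lower (0.813%). It was Bmp4, a dorsalising signal, at 1316.2 against 310.5, and Shh was at 38.7 on that array. In granule over ES cells 1 was higher (6.83% of all genes), Wnt5a at 334.1 against 13.0. In granule over Sox1 cells 0 were higher (3.66% of all genes) and 3 lower (2.09%), again Shh, Fgf15 and Cyp26a1.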

How the data were processed

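The deposited values are linear intensities of 45101 probe sets on 4 arrays. Per the submitters' processing notes GCRMA was used, without a version, but the deposited intensities are linear, from 0.1 to 43110.3, and each array's mean after trimming 2% at each end was 500.0, so the step that made them is uncertain. The number of arrays limits the precision, and no detection flags were used. The platform's annotation named 1 symbol for 34945 probe sets other than controls and several for 932, which were left out. From there, log2 signals, the low level, the detection level and the 4-fold rule were computed with Python 3.11.15, numpy 2.4.6 and pandas 2.3.3, over all 18193 genes and with no test, since each group has 1 array. A run on simulated arrays checked only the code of the calling rule. Its noise was below the spread between probe sets and its changes lay clear of the threshold, so it gives no error rate here. Promoter windows came from RefSeq tables of GRCm38.p6.

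All 6 pairs of arrays were compared. Role groups, partner and signal lists and marker lists were chosen with earlier results of these data known. Genes are named by a fixed rule: members called in any comparison and detected on at least 1 array, the motor neuron determinants Mnx1, Isl1, Isl2, Lhx3 and Lhx4, and at most 8 genes of each other list. Genes named outside it, such as Otx2, were chosen after their values were seen. Alternatives were quantile normalization, centring on 7 reference genes, the mean over probe sets, a 2-fold rule, detection 2 log2 units above the low level, a pseudocount of 16 without a filter and, chosen after seeing the data, the probe set with the highest mean linear signal.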

Additional observations from a re-analysis of the deposited data

How the results depend on the processing

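The 2-fold rule, the stricter detection level and the pseudocount keep the order of a pair of signals, so they could not change a sign. Centring shifted each array by 0.44 log2 units or less, too little to reverse a 4-fold difference. None of the 76 called differences changed sign under the 7 alternatives. Of these differences, 4 fell short of 4-fold with centring on reference genes, 12 with the mean over probe sets and 1 with a pseudocount of 16 and no filter, whereas quantile normalization, a 2-fold rule, the stricter detection level and the probe set with the highest mean linear signal lost 0. The last of these also called Pax7, giving 21 genes higher in Sox1 than in ES cells, against 3.7% of all genes. With the mean over probe sets, 1 gene, Pou3f1, became higher in the array labelled HB9-GFP+ over ES, against 0.781% of all genes. By that mean 2 genes were lower in granule than in ES cells, against 3.91% of all genes. The looser rules called more by construction. At 2-fold, 31 genes were higher and 1 lower in Sox1 over ES cells, against 11% and 11.2% of all genes. In granule over ES 17 were higher (15.4% of all genes), and in granule over Sox1 6 were higher and 22 lower (10.2% and 8.73%). On the array labelled HB9-GFP+ 4 were higher and 3 lower over ES (6.65% and 7.03%). Over granule 6 were higher and 16 lower on it (16.1% and 16%). With a pseudocount of 16 and no filter, 2 were lower in Sox1 over ES, against 4.75% of all genes. In granule over ES 13 were higher and 8 lower (8.29% and 7.29% of all genes). On the array labelled HB9-GFP+ 1 was higher and 1 lower over ES (1.57% and 1.41%), and 1 was higher over Sox1 (5%). Over granule 6 were higher and 13 lower on it (7.34% and 9.11%). With detection 2 log2 units above the low level, detected genes numbered 6 for the array labelled HB9-GFP+, 12 for granule and 7 for ES cells. The Sox1 array still had the most, keeping most of its 34 detected genes. No share over all genes was computed at that level. The calls could not change, since a 4-fold difference above the low level already requires that signal.

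Centring on reference genes raised the granule array by 0.44 log2 units. Over all genes the share of calls that were higher then moved to 76.8% in granule over ES cells, where it was 57.8% as deposited, to 82.3% from 63.6% in granule over Sox1, and to 21.9% from 42.7% on the array labelled HB9-GFP+ over granule. The patterning genes then counted 12 higher and 3 lower in granule over ES, against 10.6% and 3.2% of all genes. They counted 1 and 12 in granule over Sox1 (6.19% and 1.34%), and 3 and 11 on the array labelled HB9-GFP+ over granule (3.23% and 11.5%). Quantile normalization moved the share to 67.8% from 57.7% on the array labelled HB9-GFP+ over ES, with 0 patterning genes called in either case. No paired analysis was possible because each group has 1 array.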

Other observations

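Further regional transcription factors outside the chosen families showed patterns of their own. Of 25 measured, 3 were higher in Sox1 than in ES cells, against 3.59% of all genes. Sp8, an anterior and limb factor, was at 2386.8 against 29.3, and Foxa2, a factor of floor plate and endoderm, at 670.3 against 33.0. Prrxl1, a factor of dorsal horn and sensory neurons, was at 354.3 against 19.5. The same 3 were lower in granule than in Sox1 cells (2.09% of all genes). Olig1, Olig2 and Barhl1 were higher in granule cells (3.66% of all genes), with Barhl1, a granule lineage factor, at 906.6 against 17.0. On the array labelled HB9-GFP+ Olig1 and Olig2, factors of the progenitors of motor neurons and oligodendrocytes, were higher than in ES cells (1.11% of all genes). Olig1 was at 619.7 against 61.9 and Olig2 at 320.6 against 0.9. On the same array Hesx1, a factor of the anterior neural plate that is also known from ES cells, was at 338.6, against 5.1 in granule cells, 54.1 in Sox1 cells and 144.5 in ES cells.

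A probe set annotated to both Pou3f3 and 2900092D14Rik entered no gene. Its signals were 10.0 for the array labelled HB9-GFP+, 538.3 in granule cells, 647.5 in Sox1 cells and 37.9 in ES cells, the order of arrays seen for the Pou3f3 probe set used above among the neural samples and ES cells.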
